A study of Mus musculus with 4 samples.

Results

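The genes described here are 9 components of the PI3K, mTOR and MYC growth signalling route, chosen by symbol from the deposited gene tables: Pik3cd, Pik3r1, Inpp5d, Akt1, Tsc1, Mtor, Rptor, Rictor and Myc. All 9 were found among 37310 gene rows, and all 9 passed the filter on low counts that left 13904 genes for testing. The RNA came from bone marrow natural killer (NK) cells of C57BL/6 mice aged 6 to 8 weeks, which were sorted as CD3e-NK1.1+CD49b+ and sequenced as Smart-seq2 libraries. The dKO group (2 libraries) has the genotype Gabpb1l-/-Gabpb2-/-, which removes Gabpb2 and the long Gabpb1 form (Gabpb1l) and so the α2β2 tetramer of the Ets-family transcription factor GABP. The Ctrl group (2 libraries) consists of littermate controls, whose alleles the labels do not state. The libraries are biological replicates per the series design, but the labels name neither a Cre driver nor the number of mice behind a library, and p-values measure only the spread between these libraries. The comparison asks which NK cell transcripts differ when the tetramer is missing.

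Class I PI3K turns a membrane lipid into the messenger PIP3 when cytokine or activating receptors are engaged, and PIP3 recruits the kinase AKT. AKT restrains the TSC complex, which otherwise holds mTOR inactive in its raptor-containing complex (mTORC1), while the rictor-containing complex (mTORC2) phosphorylates AKT in turn. In NK cells this route couples interleukin-15 and nutrients to growth, maturation and effector function, and the transcription factor MYC drives much of the growth programme.

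GABP binds DNA through GGAA-centred Ets motifs, so the RefSeq promoter windows (GRCm38.p6, 250 bases before to 50 after each gene start) of the genes were searched for the extended form CCGGAAG on both strands. RefSeq windows were matched for 8 of the 9 genes (12 windows), and 1 of them held CCGGAAG, that of Mtor. Of 32851 mouse windows, 8.86% held it. The shorter CGGAAG, which lies within CCGGAAG, was also in the Tsc1 window, and in 16.9% of all windows. The first 100 bases of these windows are printed 5′ to 3′ on the plus strand to show where the letters lie, with the match in capitals. Mtor is at chr4:148448332-148448431, with the match starting 237 bases before the gene start, and Tsc1 at chr2:28640983-28641082, with the match starting 204 bases before it and reading CGGAAG on the minus strand.
Mtor: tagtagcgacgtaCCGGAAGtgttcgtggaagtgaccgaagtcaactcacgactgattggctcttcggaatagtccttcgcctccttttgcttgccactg
Tsc1: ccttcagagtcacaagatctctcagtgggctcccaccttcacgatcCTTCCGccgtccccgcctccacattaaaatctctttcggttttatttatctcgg
These matches describe the letters only.

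No member of the group passed the test between dKO and Ctrl NK cells. By the quasi-likelihood test of edgeR with Benjamini-Hochberg adjustment over all 13904 genes, 0 of 9 had an adjusted p under 0.05, where 0.611% of all tested genes did. At an unadjusted p under 0.05 in edgeR the count was again 0 of 9, beside 10.6% of all tested genes. At an adjusted p under 0.05, DESeq2 called 0 of 9, beside 404 of 13827 genes over all. By the same threshold limma-voom called 0 of 9, beside 91 of 13904 genes. Log2 fold changes (dKO minus Ctrl) ran from -0.45 for Rptor to 0.11 for Rictor. They were negative for 7 of 9 genes with a median of -0.06, beside a median of 0.01 over all tested genes. The counts behind these values ran from 803 to 28781 per gene and library. Each of the 9 intervals at 95% lay within a 2-fold change, with bounds between 0.531 and 1.47 times the Ctrl level. These intervals use the spread that edgeR shares across genes, since an exact permutation of 2 against 2 libraries cannot give a two-sided p below 0.333.

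Of the whole libraries, gene counts summed to between 30233870 and 31469644 in dKO and between 33299226 and 34724516 in Ctrl. Ctrl 1 stood apart, with 15921 genes detected against 18206 in Ctrl 2 and 19450 and 19220 in dKO. Across genes (log2 CPM), Ctrl 1 had r of 0.948 and 0.9497 with the dKO libraries, where Ctrl 2 had 0.961 and 0.959. Within groups r was 0.961 for Ctrl and 0.973 for dKO, so Ctrl 2 was about as close to dKO 1 as to Ctrl 1. Gabpb2 checked the labels, at 2.64 and 2.85 CPM (TMM-scaled counts relative to library size) in dKO and 36.5 and 30.4 CPM in Ctrl. Gabpa (101.5 and 98.4 CPM in dKO, 81.6 and 80.8 CPM in Ctrl) and Gabpb1 (81.2 and 79.4 CPM in dKO, 57.1 and 52.0 CPM in Ctrl) did not pass in edgeR, at adjusted p of 0.578 and 0.273, and a count over all Gabpb1 forms does not check the deleted long form. The defining NK genes Ncr1 and Klrb1c stood between 1391 and 1896 CPM in all 4 libraries. For each, both dKO libraries lay below both Ctrl libraries. Of 10 NK markers, 7 had negative fold changes and 0 passed in edgeR. Their sums were 10821 and 11141 CPM in dKO against 13800 and 12722 CPM in Ctrl. Ddx3y, a Y-linked gene, had 278 and 224 CPM in dKO and 0 counts in both Ctrl libraries, as had Kdm5d, Eif2s3y and Uty, and the X-inactivation transcript Xist had 2 and 9 counts in dKO against 6066 and 6430 in Ctrl, so genotype and these sex markers cannot be told apart. All 9 genes lie on autosomes, and Tsc1, on chromosome 2, lies 97.9 Mb from Gabpb1 and is the only member on a chromosome with Gabpb1 or Gabpb2 (GRCm38, GENCODE M21). Of 7 T cell markers, Cd3e and Trac fell and all had negative fold changes, and their summed level was 45.7 and 72.3 CPM in dKO against 194 and 208 CPM in Ctrl, with no marker at 0 in every library. Of 5 mature NK markers, Klrg1, Cx3cr1 and Zeb2 fell, with sums of 359 and 328 CPM in dKO against 764 and 625 CPM in Ctrl. Among 5 immature NK markers, 2 had negative fold changes and 0 passed in edgeR. The immature sums were 1205 and 1339 CPM in dKO against 940 and 1098 CPM in Ctrl. The part of these shifts in the values below was not tested, and in bulk RNA fewer cells of a type and less RNA per cell cannot be told apart.

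**Figure D1:**
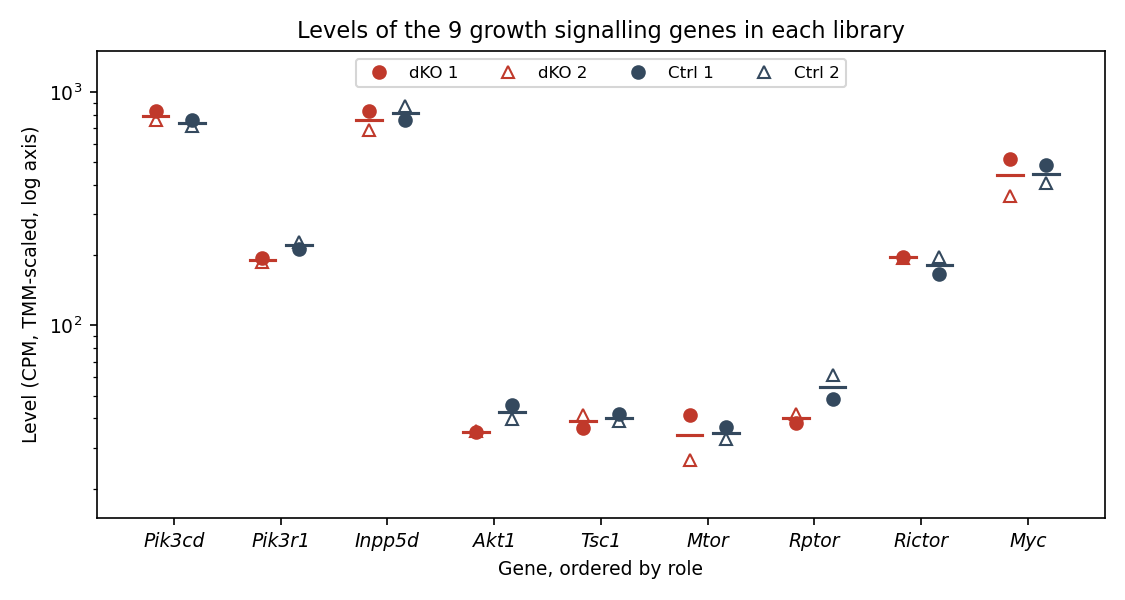
Level of each of the 9 genes in CPM (TMM-scaled, log axis) in every library, dKO in red left of Ctrl in blue, with circles for replicate 1, triangles for replicate 2 and a bar at each group mean. Pik3cd and Inpp5d stand at 689.7 to 867 CPM with overlapping groups, while both dKO values lie below both Ctrl values for Pik3r1, Akt1 and Rptor.

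Levels of different genes are comparable only per length, so the deposited TPM (length-scaled transcript abundance) give the order within these cells. Over the 4 libraries the mean TPM was 414 for Myc, 300.5 for Pik3cd and 288 for Inpp5d. It was 48.3 for Rictor, 42.7 for Pik3r1, 25.7 for Akt1, 20.0 for Mtor, 13.6 for Rptor and 12.9 for Tsc1. The ranges over libraries of neighbours in this order overlapped except at Inpp5d and Rictor (235.8 to 323.5 against 39.97 to 53.4 TPM) and at Pik3r1 and Akt1 (34.9 to 49.5 against 21.7 to 29.6 TPM). The Myc mRNA, the PI3Kδ catalytic subunit and the lipid phosphatase thus formed an upper tier in TPM, well above the kinase Mtor and its partners. The TPM of Mtor depends on an RSEM transcript length of 3261 and 2078 bases in dKO and 3266 and 2380 bases in Ctrl, where the longest annotated Mtor transcript has 8564 bases. In each group the replicate 1 library had the longer Mtor length, so the deposited TPM of Mtor is less certain between libraries than its count.

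Pik3cd encodes the catalytic subunit p110δ, the class I PI3K of leukocytes. It had 829 and 755 CPM in dKO and 759 and 716 CPM in Ctrl, so dKO 2 lay just below Ctrl 1. The group means were 792 ± 52.2 CPM in dKO and 738 ± 30.5 CPM in Ctrl (SD, n = 2 each), and the log2 fold change of 0.10 (SE 0.15, 95% interval -0.23 to 0.44) did not pass in edgeR (adjusted p = 0.878). In TPM, Pik3cd had 352 and 278 in dKO and 317 and 255 in Ctrl, above the other catalytic subunits. Among these, Pik3cg (p110γ) ranged from 30.2 to 42.5 TPM, Pik3ca (p110α) from 4.13 to 5.39 TPM and Pik3cb (p110β) from 1.85 to 2.77 TPM. These paralogs were set beside Pik3cd after their values were seen.

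Pik3r1 encodes p85α and its shorter forms, which stabilise the catalytic subunits and bring them to phosphotyrosine sites. It had 194 and 187 CPM in dKO and 213 and 228 CPM in Ctrl. Both dKO libraries were lower than both Ctrl libraries in CPM, as for 19.9% of all tested genes. In TPM, Pik3r1 had 43.2 and 34.9 in dKO and 43.2 and 49.5 in Ctrl, so dKO 1 equalled Ctrl 1. The means were 191 ± 4.59 CPM in dKO and 220.2 ± 10.4 CPM in Ctrl (SD, n = 2 each), and the log2 fold change was -0.21 (SE 0.15, 95% interval -0.55 to 0.13, edgeR adjusted p = 0.701). The RSEM transcript length of Pik3r1, weighted over the 3 transcripts that RSEM used, ranged only from 6904 to 6915 bases over the 4 libraries. Among those 3 it shows no shift of weight to a shorter form. GENCODE M21 lists 7 Pik3r1 transcripts, and the length cannot speak to forms that RSEM did not use.

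Inpp5d encodes SHIP1, the haematopoietic phosphatase that removes the 5-phosphate of PIP3 and acts at inhibitory NK receptors. It had 828 and 689.7 CPM in dKO and 756 and 867 CPM in Ctrl, and the groups overlapped. The log2 fold change was -0.10 (SE 0.16, 95% interval -0.47 to 0.28, edgeR adjusted p = 0.900), and its sign turned without dKO replicate 2 (0.03) and without Ctrl replicate 2 (0.0070). In TPM, Inpp5d had 322 and 236 in dKO and 269 and 324 in Ctrl, and the groups overlapped there too. The related Inppl1 (SHIP2) ranged from 3.30 to 5.60 TPM.

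Akt1 encodes the AKT isoform found in most tissues. It had 34.9 and 35.1 CPM in dKO and 45.6 and 39.8 CPM in Ctrl, with both dKO libraries below both Ctrl libraries. The means were 35.0 ± 0.141 CPM in dKO and 42.7 ± 4.04 CPM in Ctrl (SD, n = 2 each), and the log2 fold change of -0.28 (SE 0.19, 95% interval -0.72 to 0.16) did not pass in edgeR (adjusted p = 0.682). The isoform gene Akt2, chosen for this comparison after its values were seen, was far more abundant, at 225 and 192 TPM in dKO and 169.9 and 177 TPM in Ctrl. Akt1 itself had 24.0 and 21.7 TPM in dKO and 29.6 and 27.4 TPM in Ctrl. Akt2 thus exceeded Akt1 in TPM in all 4 libraries. The Akt2 difference ran the other way from Akt1, with a log2 fold change of 0.24 (SE 0.14), and did not pass either (edgeR adjusted p = 0.637).

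Tsc1 encodes hamartin, which stabilises the mTORC1 inhibitor Tsc2. It had 36.3 and 41.3 CPM in dKO and 41.8 and 38.8 CPM in Ctrl, and the groups overlapped. The log2 fold change was -0.06 (SE 0.19, 95% interval -0.50 to 0.39, edgeR adjusted p = 0.958), and without dKO replicate 1 it was 0.04.

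Mtor encodes the kinase shared by both complexes. It had 41.5 and 26.6 CPM in dKO and 36.6 and 32.5 CPM in Ctrl, so the dKO libraries held both the highest and the lowest value. The higher dKO library exceeded the lower 1.56-fold in CPM, the widest gap within a group among the 9 genes, against 1.13-fold in Ctrl. In TPM, Mtor had 20.5 and 20.2 in dKO and 17.2 and 22.3 in Ctrl, so there the Ctrl libraries held both extremes. The means were 34.0 ± 10.5 CPM in dKO and 34.6 ± 2.89 CPM in Ctrl (SD, n = 2 each), and the log2 fold change was -0.02 (SE 0.25, 95% interval -0.60 to 0.56, edgeR adjusted p = 0.991). It became 0.26 without dKO replicate 2 and -0.38 without dKO replicate 1, so no direction can be given.

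Rptor encodes raptor, the scaffold that presents substrates to mTORC1, and had the smallest p of the 9 genes. It had 38.3 and 41.6 CPM in dKO and 48.3 and 61.2 CPM in Ctrl, with both dKO libraries below both Ctrl libraries. The means were 40.0 ± 2.33 CPM in dKO and 54.8 ± 9.15 CPM in Ctrl (SD, n = 2 each). The log2 fold change of -0.45 (SE 0.20, 95% interval -0.91 to 0.0042) gave an unadjusted p of 0.0517 and an edgeR adjusted p = 0.478. Leaving out 1 library at a time moved it between -0.62 (without Ctrl replicate 1) and -0.27 (without Ctrl replicate 2), negative in each case. An antisense gene, Rptoros, shares exon bases with Rptor and had 9 to 18 counts per library, beside Rptor counts of 1231 to 2032. No source used here gives the strand setting of the counting, and the assignment of reads on the shared bases was not tested.

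Rictor encodes the defining scaffold of mTORC2. It had 196.3 and 194.6 CPM in dKO and 167 and 196.5 CPM in Ctrl, so Ctrl 2 matched the dKO libraries and Ctrl 1 stood lower. The log2 fold change was 0.11 (SE 0.16, 95% interval -0.25 to 0.46, edgeR adjusted p = 0.885), and without Ctrl replicate 1 it was -0.01.

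Myc encodes the transcription factor that raises ribosome production and metabolism in growing lymphocytes. It had 518 and 359 CPM in dKO and 484 and 406 CPM in Ctrl, and the dKO libraries again held both the highest and the lowest value. The means were 439 ± 112 CPM in dKO and 445 ± 55.1 CPM in Ctrl (SD, n = 2 each). The log2 fold change was -0.02 (SE 0.20, 95% interval -0.49 to 0.45, edgeR adjusted p = 0.989), with values of 0.22 without dKO replicate 2 and -0.31 without dKO replicate 1. Transcript level says nothing of MYC protein, which turns over fast and is controlled after transcription.

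**Figure D2:**
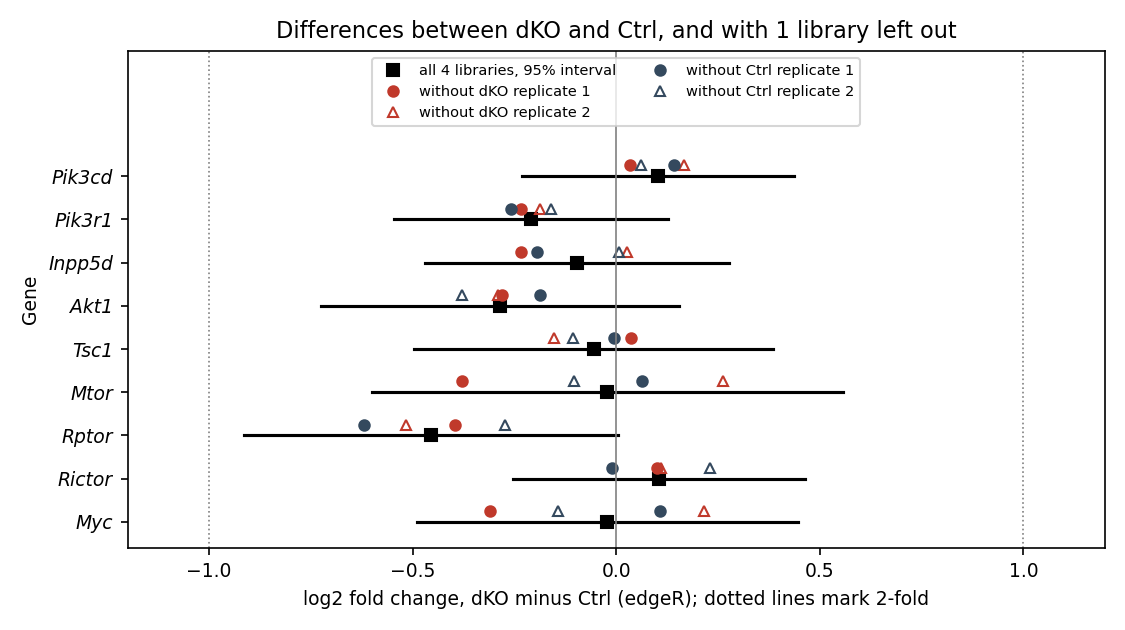
Log2 fold change of each gene (dKO minus Ctrl, edgeR, black square) with its 95% interval (black line), and the fold change with 1 library left out (small symbols). All 9 intervals stay inside the dotted lines at 2-fold, and the left-out values of Mtor and Myc fall on both sides of 0 while those of Rptor, Akt1 and Pik3r1 stay negative.

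In CPM, both dKO libraries were outside the Ctrl range for 3 of 9 genes (Pik3r1, Akt1 and Rptor, all lower). Over all tested genes this held for 41.6% in either direction and 19.9% in that direction. In either direction 3 of 9 is near that background. The count was 4, with 1 of them higher, with library totals alone, upper quartile scaling or RSEM expected counts. The share over all tested genes was computed only for the main fit. Counts with 1 library left out are given with the other alternatives. They cannot be compared with these, since fewer libraries overlap less.

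Ratios of raw counts within a library do not depend on scaling, and 4 were formed after the values were seen. The ratio of Rptor to Rictor, the defining subunits of mTORC1 and mTORC2, was 0.195 and 0.214 in dKO and 0.289 and 0.312 in Ctrl. Both dKO ratios were lower, with a difference of -0.56 on the log2 scale, and the exact two-sided permutation p of 0.333 is the smallest that 2 against 2 libraries can give. The ratio of Pik3cd to Pik3r1, catalytic to regulatory subunit, was 4.28 and 4.03 in dKO and 3.57 and 3.15 in Ctrl, also without overlap (exact permutation p = 0.333). The ratio of Pik3cd to Inpp5d, kinase to phosphatase, was 1.001 and 1.095 in dKO and 1.005 and 0.826 in Ctrl (exact permutation p = 0.667). The ratio of Mtor to Tsc1 was 1.14 and 0.643 in dKO and 0.876 and 0.837 in Ctrl, with the Ctrl libraries between the dKO libraries. These ratios compare counts of genes of unequal length, so only their differences between libraries can be read.

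**Figure D3:**
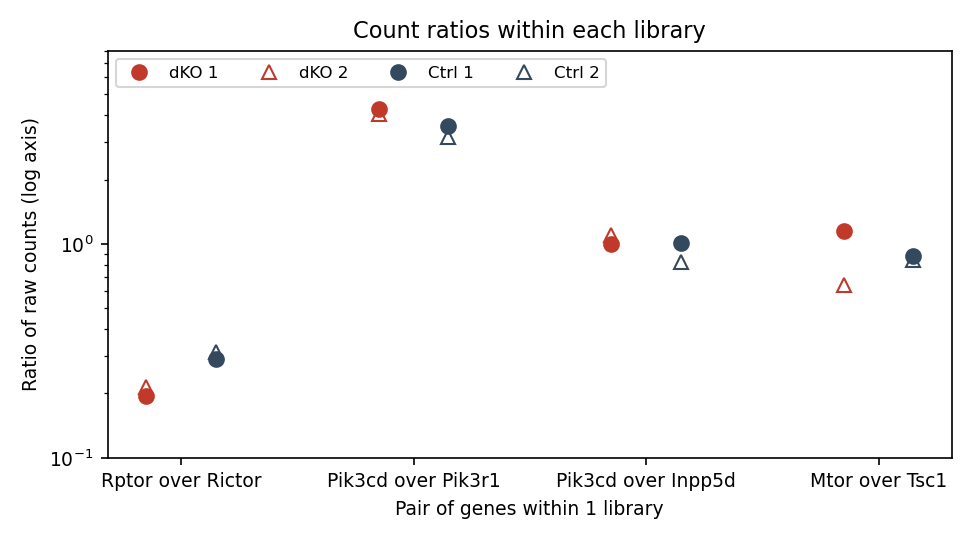
Ratio of raw counts of 2 genes within each library (log axis), dKO in red left of Ctrl in blue, circles for replicate 1 and triangles for replicate 2. The Rptor over Rictor ratio lies at 0.195 and 0.214 in dKO, below 0.289 and 0.312 in Ctrl, and the Mtor over Tsc1 ratio of the dKO libraries spans the Ctrl values.

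The wider route was covered by 12 lists with 184 tested genes beside the 9. In edgeR 0 of 184 were called, 15 had an unadjusted p under 0.05 and a negative fold change and 6 had a positive one, and the median log2 fold change was -0.04. Over all 13904 tested genes 742 were lower and 728 higher at that level, which is 10.6% in all. DESeq2 called 5 of the 184, beside 404 of 13827 genes over all. The fit without a filter on low counts called 11 of the 184, beside 559 of 23322 genes, as given with the other alternatives.

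The receptor end had Jak3, the kinase bound to the common gamma chain, at 157 and 146 CPM in dKO and 253 and 263 CPM in Ctrl (log2 fold change -0.77, SE 0.15, edgeR adjusted p = 0.0790). DESeq2 gave Jak3 an adjusted p of 0.0024. Hcst, the DAP10 adaptor that couples the activating receptor NKG2D to PI3K, had 37.2 and 42.2 CPM in dKO and 32.0 and 28.6 CPM in Ctrl (adjusted p = 0.560). Of 15 tested receptor and adaptor genes, 9 had positive and 6 negative fold changes, with a median of 0.06, while without Ctrl replicate 1 they were 6 and 9 with a median of -0.02, and without Ctrl replicate 2 the median was 0.11.

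Of 11 PI3K subunit and regulator genes, 6 had positive and 5 negative fold changes, against 4 positive and 7 negative without Ctrl replicate 1 and 5 and 6 without dKO replicate 1. Pik3ip1, an inhibitor of the catalytic subunit, had 103 and 82.4 CPM in dKO and 90.9 and 201 CPM in Ctrl, and 1 Ctrl library thus set its fold change of -0.65 (SE 0.33, edgeR adjusted p = 0.562). Pik3cg had a log2 fold change of -0.28 (SE 0.16, adjusted p = 0.621). Among 11 phosphoinositide phosphatases the median was -0.00039 on the log2 scale, and it ran from -0.23 without dKO replicate 1 to 0.16 without dKO replicate 2. Inpp4b, which removes the 4-phosphate of a PIP3 breakdown product, had 14.4 and 22.1 CPM in dKO and 34.2 and 26.7 CPM in Ctrl (log2 fold change -0.74, SE 0.27, adjusted p = 0.395), and its relative Inpp4a had -0.33 (SE 0.18, adjusted p = 0.585).

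Downstream of PIP3, 14 genes of the AKT and FOXO list had a median of 0.18, which turned to -0.12 with 8 of 14 negative without Ctrl replicate 1 and was 0.03 without dKO replicate 2. Foxo1, the transcription factor that AKT keeps out of the nucleus, had 18.6 and 23.2 CPM in dKO and 14.2 and 13.3 CPM in Ctrl (log2 fold change 0.61, SE 0.24, edgeR adjusted p = 0.424). Sgk1, a kinase activated by mTORC2, had a log2 fold change of -0.33 (SE 0.19, adjusted p = 0.620). Among 15 tested FOXO target genes the median was 0.10, with 8 positive and 7 negative. It was -0.07 without Ctrl replicate 1, 0.26 without Ctrl replicate 2, 0.19 without dKO replicate 1 and 0.0057 without dKO replicate 2, so its direction depends on the library left out. S1pr1, the receptor for marrow egress, was at 85.1 and 96.1 CPM in dKO and 132 and 163 CPM in Ctrl (log2 fold change -0.70, SE 0.18, adjusted p = 0.175), and the cytokine receptor gene Il7r was at 91.7 and 90.6 CPM in dKO and 127 and 221 CPM in Ctrl (-0.93, SE 0.25, adjusted p = 0.213). DESeq2 called both, at adjusted p of 0.0279 and 0.0123.

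Of the 184 genes, Prkab1, a regulatory subunit of the energy-sensing kinase AMPK, had the smallest adjusted p. It had 448 and 398 CPM in dKO and 206 and 243 CPM in Ctrl. Both dKO libraries were higher, and the log2 fold change of 0.91 (SE 0.16) gave an edgeR adjusted p = 0.0574. Prkab1 passed with DESeq2 (0.00034), limma-voom (0.0404), a minimum count of 50 (0.0317), no filter on low counts (3.89e-05) and the RSEM expected counts (0.0335). It did not pass with RLE size factors, upper quartile scaling, library totals alone, a fit that is not robust or a replicate block. Stk11, which encodes the AMPK-activating kinase LKB1, had 20.8 and 27.5 CPM in dKO and 16.6 and 12.7 CPM in Ctrl (0.72, SE 0.26, edgeR adjusted p = 0.377). Of 15 tested genes in the TSC, RHEB and AMPK list, 9 had positive fold changes and the median was 0.13, which ranged from 0.0074 (without Ctrl replicate 2) to 0.23 (without Ctrl replicate 1) with 1 library left out.

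Among 11 tested genes of the mTOR complexes, the median was 0.10, and it was 0.04 without Ctrl replicate 2 and 0.06 without dKO replicate 2. Akt1s1 encodes PRAS40, an AKT substrate that inhibits mTORC1, and had 118 and 88.2 CPM in dKO and 69.9 and 60.7 CPM in Ctrl (log2 fold change 0.66, SE 0.20, edgeR adjusted p = 0.269). Telo2, needed to assemble mTOR and related kinases, had -0.22 (SE 0.24, adjusted p = 0.836). Of 26 amino acid sensing genes, 14 were positive and 12 negative, and 13 and 13 without either dKO library or Ctrl replicate 2. The Ragulator gene Lamtor4 (0910001L09Rik in the tables) had 52.6 and 49.2 CPM in dKO and 31.9 and 37.0 CPM in Ctrl (0.56, SE 0.19, adjusted p = 0.332), and the leucine sensor Sesn2 had 48.4 and 39.0 CPM in dKO and 58.1 and 67.2 CPM in Ctrl (-0.52, SE 0.20, adjusted p = 0.406). Of 18 tested mTORC1 output genes, 9 were positive and 9 negative, against 11 and 7 without dKO replicate 2 and 8 and 10 without dKO replicate 1. Lpin1, a lipid phosphatase phosphorylated by mTORC1, had a log2 fold change of -0.57 (SE 0.17, adjusted p = 0.275) and Larp1, a regulator of ribosomal protein mRNAs, had -0.55 (SE 0.20, adjusted p = 0.383).

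The MYC network list, which holds Myc itself, had 7 positive and 7 negative fold changes of 14, and 6 positive and 8 negative with RLE size factors, DESeq2 or limma-voom. Its median ran from -0.20 without dKO replicate 1 to 0.10 without Ctrl replicate 2. The MAX-binding repressor Mga had 89.2 and 58.5 CPM in dKO and 93.9 and 126 CPM in Ctrl (log2 fold change -0.57, SE 0.24, adjusted p = 0.460 in edgeR). Mxd3, another MAX partner, had at most 6.34 CPM in any library (-0.98, SE 0.52, adjusted p = 0.582). The 35 MYC target genes, mostly ribosome production and metabolism, had 31 negative fold changes and a median of -0.29. Over all tested genes 6735 of 13904 were negative, with a median of 0.01. Of the 35, 16 had both dKO libraries below both Ctrl libraries, beside 19.9% of all tested genes. The call count over this list was 0 in edgeR. At an unadjusted p under 0.05, 5 of the 35 were lower, beside 742 of 13904 genes over all. Polr1b, a subunit of RNA polymerase I, had 33.5 and 34.3 CPM in dKO and 76.0 and 60.6 CPM in Ctrl (-1.01, SE 0.19, adjusted p = 0.0790 in edgeR). Polr1b passed with DESeq2 (0.00071), a minimum count of 50 (0.0499) and no filter on low counts (0.00032). It did not pass with limma-voom, RSEM expected counts, the other scalings, a fit that is not robust or a replicate block. Odc1, the first enzyme of polyamine synthesis, had 6.16 and 5.76 CPM in dKO and 16.1 and 10.3 CPM in Ctrl (-1.15, SE 0.32, adjusted p = 0.232). Without Ctrl replicate 1 only 23 of 35 were negative, with a median of -0.09, and without Ctrl replicate 2 the median was -0.46. Markers of dividing cells moved alongside, with 6 of 6 negative and summed levels of 177 and 312 CPM in dKO against 559 and 405 CPM in Ctrl, highest in Ctrl 1. Among them Tyms, which encodes thymidylate synthase, fell to 3.33 and 6.55 CPM in dKO, against 28.3 and 22.0 CPM in Ctrl (log2 fold change -2.35, SE 0.36, adjusted p = 0.0379 in edgeR). The precursor markers Mpo (59.7 and 55.5 CPM in dKO, 348 and 104 CPM in Ctrl) and Elane (20.9 and 15.7 CPM in dKO, 106 and 39.4 CPM in Ctrl) were also highest in Ctrl 1 and did not pass in edgeR (adjusted p = 0.155 and 0.112). In all, 7 of the 8 neutrophil and precursor markers were negative with sums of 1316 and 2149 CPM in dKO against 2124 and 2710 CPM in Ctrl. The part of these markers in the MYC target values was not tested.

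Nutrient transporter genes had 10 negative of 13 tested and a median of -0.18. With 1 library left out the median was -0.39 without dKO replicate 1, -0.05 without dKO replicate 2 and -0.06 without Ctrl replicate 1. The lactate transporter gene Slc16a1 had 42.8 and 44.6 CPM in dKO and 84.0 and 60.3 CPM in Ctrl (log2 fold change -0.72, SE 0.21, adjusted p = 0.253 in edgeR). The amino acid transporter gene Slc7a5 was low, at 2.40 and 2.18 CPM in dKO and 3.79 and 3.50 CPM in Ctrl (adjusted p = 0.655).

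**Figure D4:**
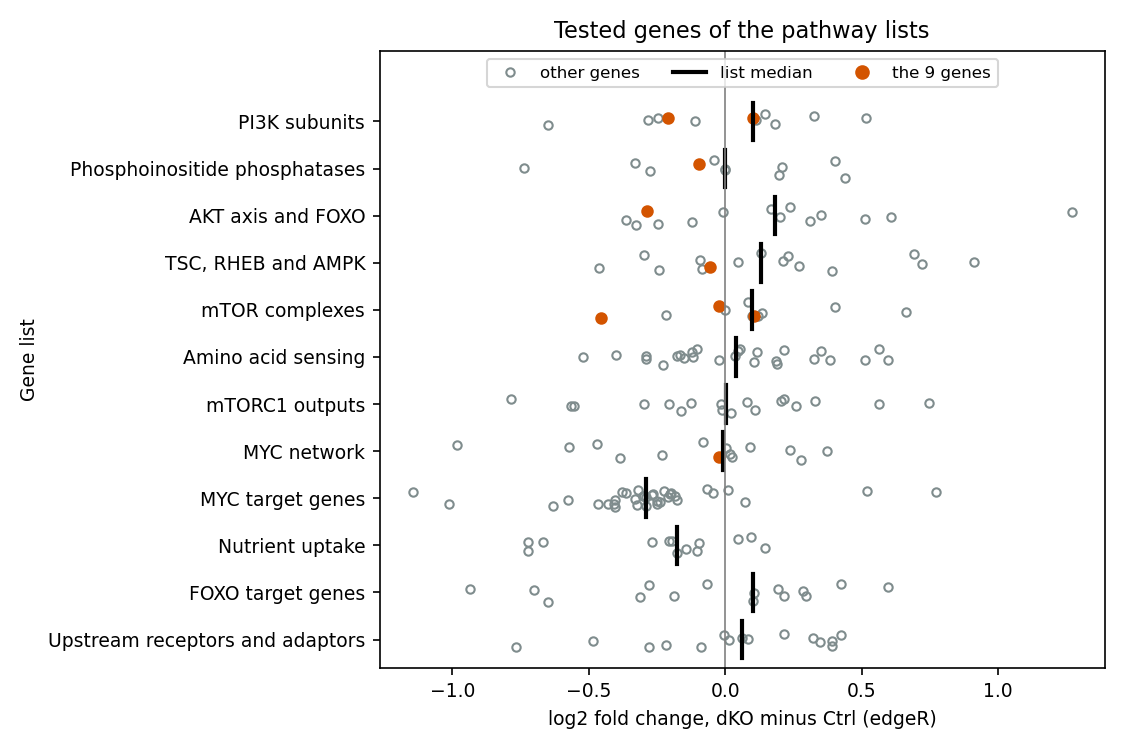
Log2 fold change (dKO minus Ctrl, edgeR) of each tested gene in the 12 lists, with list medians as black bars and the 9 genes in orange. The list of MYC target genes has 31 of 35 values below 0 and a median of -0.29, while Myc itself lies at -0.02 and with all 4 libraries the medians of the other lists lie between -0.18 and 0.18.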

How the data were processed

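Per the submitters' processing notes the build named was mm9 and the tools were HTSeq 0.6.1, RSEM 1.3.0, TopHat2 2.1.1, DESeq2 1.32.0, Trimmomatic 0.36 and FastQC 0.11.5. Their roles, parameters and strand setting are not given in sources used here. The authors deposited raw counts of each gene per library and, per the file headers, RSEM expected counts, TPM, FPKM and transcript lengths. The deposited FPKM entered no result. Reads in no gene (23.8% and 24.3% in dKO, 18.1% and 21.5% in Ctrl) and ambiguous reads (2.20% to 2.34%) were left out. The share in no gene was thus higher in both dKO libraries, and its part in the values was not tested. The median ratio of count to deposited expected count was 2.05 to 2.07, so counting error may be larger than counts alone give.

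Counts were tested with edgeR 4.0.16 (robust quasi-likelihood fit, TMM, minimum count 10) in R 4.3.3 over all 13904 genes. The SE was derived from the log2 fold change and its F statistic, and intervals use its degrees of freedom. Procedures were tested on simulated data. Alternatives were other scalings and filters, DESeq2 1.42.0, limma-voom (limma 3.58.1), a fit that is not robust, rounded expected counts, a replicate block, a threshold of 0.1 and leaving out each library. Symbols came from the RSEM tables. Positions are from GENCODE M21 by Ensembl identifier, not the build of the counts. The 9 genes and the lists were chosen with earlier results of these data known. Besides the 9, the GABP subunits, sex-linked transcripts and, per list, called genes or else the 2 with the smallest p were named, and other names were chosen after their values were seen. Tfeb, Tfe3 and Tti2 were not analysed here.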

Additional observations from a re-analysis of the deposited data

How the results depend on the processing

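None of the 9 genes was called under any of the 14 other fits or at an adjusted p of 0.1. Their fold changes kept their sign in 115 of 126 recomputed values. The sign turned for Inpp5d (0.0277 without dKO replicate 2 and 0.0070 without Ctrl replicate 2, range -0.23 to 0.0277 with 1 library left out), Mtor (0.0138 with library totals alone, -0.38 to 0.26 with 1 library left out), Myc (0.0141 with library totals alone, 0.00071 with RSEM expected counts, -0.31 to 0.22 with 1 library left out), Rictor (-0.0104 without Ctrl replicate 1, up to 0.23) and Tsc1 (0.0355 without dKO replicate 1, down to -0.15). Rptor had an unadjusted p under 0.05 with RLE size factors (0.0479), DESeq2 (0.0457), no filter (0.0348) and without Ctrl replicate 1 (0.0229). Groups did not overlap for 3 of the 9 genes, and for 5 to 7 with 1 library left out. Fewer libraries overlap less, and the share over all tested genes was not computed with 1 library left out. The higher counts thus cannot show that more of the 9 genes separate by genotype. Over all genes 85 were called, against 559 without a filter, 147 with a minimum count of 50, 404 with DESeq2, 166 at an adjusted p of 0.1 and 73 to 187 with 1 library left out (187 without Ctrl replicate 2). Of the 184 pathway genes 0 were called, against 11 without a filter, 5 with DESeq2, 2 with a minimum count of 50, 1 with limma-voom, 1 with RSEM expected counts, 3 at an adjusted p of 0.1 and 0 to 2 with 1 library left out. Causes of these moves were not tested. The replicate block gave 100 calls over all genes, 0 among the 9 and 0 among the 184. Deviations from group means correlated with r = -0.05 between libraries of the same replicate number. With 2 libraries per group this cannot show whether equal numbers share a batch, and the labels do not state it. A lone library in a group is assumed to vary like the others. Changes under 2-fold were not simulated, so the fit cannot be taken to resolve them with 2 libraries per group. Changes of 2-fold were found only in part. In counts simulated with the spread of the main fit, edgeR found 55.2% of 2-fold changes given to genes at 5 CPM or more. It found 96.1% of 4-fold changes. The lowest value among the 9 genes was 26.6 CPM (Mtor, dKO 2), and the share found at their levels was not computed.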
